A study of Mus musculus with 4 samples.

Results

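The Ifitm genes encode small interferon-induced transmembrane proteins, and 5 of them, Ifitm5, Ifitm2, Ifitm1, Ifitm3 and Ifitm6 in this order, lie side by side on mouse chromosome 7. Their expression was followed in DN4 thymocytes, the last stage of thymic T cell development before CD4 and CD8 appear, with and without an induced deletion of Ikaros. The members were taken as every array row with exactly 1 gene symbol in the platform annotation and that symbol being 1 of these 5. This gave 8 probe sets for the 5 genes, with 3 for Ifitm2, 2 for Ifitm1 and 1 each for Ifitm3, Ifitm5 and Ifitm6, out of 21789 probe sets for 19938 genes. The cluster was chosen by its measured log2 values in the comparison of Cre+ with Cre- arrays, with Ifitm2 alike in both Cre+ mice and Ifitm3 not, so the values of its members in that comparison are a description and carry no test.

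All 4 mice were Ikf/f, with both copies of the Ikaros gene Ikzf1 flanked by loxP sites, and all received tamoxifen at 50 mg/kg intraperitoneally each day for 4 days and were examined 24 h after the final dose. The 2 Cre+ mice, numbers 129 and 135, also carried Rosa26-CreERT2, a tamoxifen-activated recombinase driven from a locus active in nearly all cells, so that cells outside the T lineage could lose Ikaros as well. The 2 Cre- mice, numbers 131 and 137, were Ikf/f and are Cre- by their titles and the design text. The treatment text, the same for all 4 samples, calls every mouse Rosa26-CreERT2+, which conflicts with the titles of this pair, and the groups here follow the titles. A group that carried the recombinase without floxed alleles was not analysed here, so deletion of Ikaros and activity of the recombinase cannot be told apart. The age of the mice is not given in the labels.

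Each mouse gave 1 array of log2 values made with RMA, a method that corrects background, equalises arrays and summarises probes. The arrays had medians between 6.85 and 6.88. Ikzf1 itself gave 12.06 and 11.99 (Cre+) and 12.07 and 12.11 (Cre-), and where its probes lie relative to the floxed part was not analysed, so this value does not check the labels. By Xist, the RNA that coats the inactive X chromosome, mice 129 and 131 were female (12.51 and 12.34) and mice 135 and 137 male (5.29 and 4.93), and the Y-linked Eif2s3y, Uty and Kdm5d were high in the same males (8.61 to 9.49 against 4.39 to 5.27), so each group held 1 animal of each sex. With 2 against 2 mice no exact two-sided permutation test can give a p under 0.333. DN4 identity was checked against 14 measured markers. Cd3e, Cd3g and Thy1, all defining T lineage genes, lay between 12.84 and 13.36 on every array. Of the markers of earlier stages Cd44 lay between 5.90 and 6.40, but Kit lay between 7.72 and 7.89, above the array medians. Il2ra, the CD25 gene that DN4 cells are losing, still lay between 10.71 and 11.58. Coreceptor RNA was present in these double-negative cells: Cd8b1 lay between 11.50 and 11.91, Cd8a between 8.07 and 9.12 and Cd4 between 7.26 and 7.94. Cd4 differed by 0.54 and Cd8a by -0.61 between the group means, neither passing limma in either fit.

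IFITM proteins sit in the plasma membrane and in endosomes, where they hinder the fusion of enveloped viruses with the cell. Several of the genes, Ifitm3 among them, are classical targets of interferon, while Ifitm5 is known as a member that interferon does not induce. In promoters of such targets type I interferon acts through the interferon-stimulated response element (ISRE), and interferon-gamma through the gamma-activated sequence (GAS). Ifitm3 is the best studied restriction factor of the family in mice, Ifitm1 is a surface protein also known from primordial germ cells, Ifitm5 is a bone protein of osteoblasts, and Ifitm6 has been described in myeloid cells. Outside infection, some IFITM genes are also expressed in stem and progenitor cells without added interferon.

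The stretches around the start sites of Ifitm2, Ifitm3 and Ifitm1 are shown because the first pair differed between the groups while Ifitm1, lying between them, was at nearly the same values in all 4 mice. They are taken from RefSeq promoters on GRCm38.p6, for which all 5 members had an entry, and run 5′ to 3′ from 250 bases before the start to 30 after it. Capitals mark matches to the ISRE core, which is GAAA, any 2 bases and GAAA again. Ifitm2 is from chr7:140955932-140956211 (minus strand), Ifitm3 from chr7:141010715-141010994 (minus strand) and Ifitm1 from chr7:140967826-140968105 (plus strand).
Ifitm2: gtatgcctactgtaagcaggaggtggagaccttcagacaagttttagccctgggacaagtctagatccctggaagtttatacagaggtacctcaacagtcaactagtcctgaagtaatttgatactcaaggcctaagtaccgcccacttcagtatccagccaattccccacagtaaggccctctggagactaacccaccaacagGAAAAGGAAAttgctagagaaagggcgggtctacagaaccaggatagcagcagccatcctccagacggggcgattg
Ifitm3: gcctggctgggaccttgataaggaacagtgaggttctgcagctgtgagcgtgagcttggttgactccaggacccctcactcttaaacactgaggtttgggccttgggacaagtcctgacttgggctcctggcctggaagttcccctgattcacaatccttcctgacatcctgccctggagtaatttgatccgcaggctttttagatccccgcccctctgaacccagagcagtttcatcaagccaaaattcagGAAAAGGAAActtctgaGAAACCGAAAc
Ifitm1: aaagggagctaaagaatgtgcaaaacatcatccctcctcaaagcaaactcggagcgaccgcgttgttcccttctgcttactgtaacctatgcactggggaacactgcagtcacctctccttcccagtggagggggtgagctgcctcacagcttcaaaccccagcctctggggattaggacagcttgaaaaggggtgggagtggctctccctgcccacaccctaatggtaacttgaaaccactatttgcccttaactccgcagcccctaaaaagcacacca

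The search covered both strands of the 300-base windows from 250 bases before to 50 after each start. The Ifitm3 window held 2 ISRE core matches, GAAAAGGAAA beginning at base 3 and GAAACCGAAA beginning at base 20 after the start. The Ifitm2 window held 1 match, again GAAAAGGAAA, beginning at position -46. Among the 10 pairs of members the longest identical stretch was that of Ifitm2 and Ifitm3, the 13 bases caggaaaaggaaa, which contain this match. The windows of Ifitm1, Ifitm5 and Ifitm6 held 0 matches. Of all 32851 promoter windows of the same length, 3.44% held at least 1 ISRE core and 0.225% held 2 or more. A GAS core, TTC and GAA with 3 bases between them, was found once in Ifitm3 (TTCTGAGAA, overlapping the second ISRE match), once in Ifitm6, and in 8.30% of all windows. The Ikaros core TGGGAA was found once in Ifitm1, 2 times in Ifitm6, not in Ifitm2, Ifitm3 or Ifitm5, and in 25.6% of all windows. These matches describe the letters in the windows and are not binding sites measured here.

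Ifitm2 and Ifitm3 were higher in both Cre+ mice than in both Cre- mice, while Ifitm1, Ifitm5 and Ifitm6 differed by at most 0.11 between the group means. In Ifitm3 the Cre+ mean was 6.16-fold above the Cre- mean, and in Ifitm2 2.83-fold. The Cre+ mice were close to each other in Ifitm2 and lay 1.15 apart on the log2 scale in Ifitm3.

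Ifitm3, the endosomal restriction factor, was at 10.94 in mouse 129 and 9.79 in mouse 135, against 8.04 in mouse 131 and 7.44 in mouse 137 (log2 RMA values). The groups were separated by 1.75 between the lower Cre+ and the higher Cre- mouse, and within each group the female mouse was the higher one. The difference of the means was 2.62 on the log2 scale (moderated SE 0.42, n = 2 per group). It was 2.90 within the female pair and 2.35 within the male pair. Leaving out mouse 129 gave 2.05 and leaving out mouse 135 gave 3.20.

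Ifitm2, a close relative of Ifitm3 with a similar place in endosomal membranes, was read by 3 probe sets that the annotation ties to the same transcripts. Probe set 10383756 was at 11.96 and 11.81 in mice 129 and 135 and at 10.62 and 10.15 in mice 131 and 137. Probe set 10553299 was at 11.30 and 11.07 against 9.92 and 9.44, and probe set 10569014 at 10.74 and 10.78 against 9.41 and 9.11, in the same order of mice. All 3 showed the same picture, with the Cre+ mice close together, the groups separated and mouse 137 lowest.

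The differences of the Ifitm2 means were 1.50 in each of the 3 probe sets, with moderated SE between 0.11 and 0.18. The Cre+ mice differed from each other by -0.04 to 0.23 (mouse 129 minus mouse 135) and the Cre- mice by 0.30 to 0.48 (mouse 131 minus mouse 137). The pairs of 1 sex gave 1.33 to 1.37 for the females and 1.63 to 1.67 for the males. So the female pair had the larger difference in Ifitm3 and the smaller one in Ifitm2, which was not tested, with 1 mouse of each sex per group. The 3 probe sets share the 4 RNA samples and are not replicates.

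Ifitm1, the surface member, was at 6.39 and 6.27 in mice 129 and 135 and at 6.25 and 6.32 in mice 131 and 137 in probe set 10558769, with overlapping groups and a difference of 0.05 (SE 0.10). Its other probe set, 10570434, lay between 5.30 and 5.33 on all arrays, with a difference of 0.03 (SE 0.08). Ifitm6, the myeloid member, was at 5.39 and 5.28 against 5.30 and 5.29, also overlapping (0.04, SE 0.08). Ifitm5, the osteoblast member, was at 6.87 and 6.78 against 6.90 and 6.96, a difference of -0.11 (SE 0.10). These 3 genes thus had nearly level values across the mice.

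Of the 8 probe sets, 5 did not overlap between the groups on the higher side, including the 0.02 that separated the second Ifitm1 probe set, and 1, Ifitm5, on the lower side. Over all probe sets with 1 gene symbol these shares were 16.0% and 20.2%, so separation alone is common with 2 mice per group. A gap of at least 1 between the lower Cre+ and the higher Cre- value was rare, at 0.166% of the 19938 genes, each represented by its probe set with the highest mean. Ifitm3 ranked 4 and Ifitm2 21 among these 33 genes. This comparison was used to choose the members, and nothing is read from these ranks. The probe sets of Ifitm6 and 10570434 of Ifitm1 lay below the 25th percentile of mean level on the array (5.41), and the other 6 passed that filter. Probe sequences were not analysed here, so how far each set also binds transcripts of the similar family members was not tested.

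**Figure D1:**
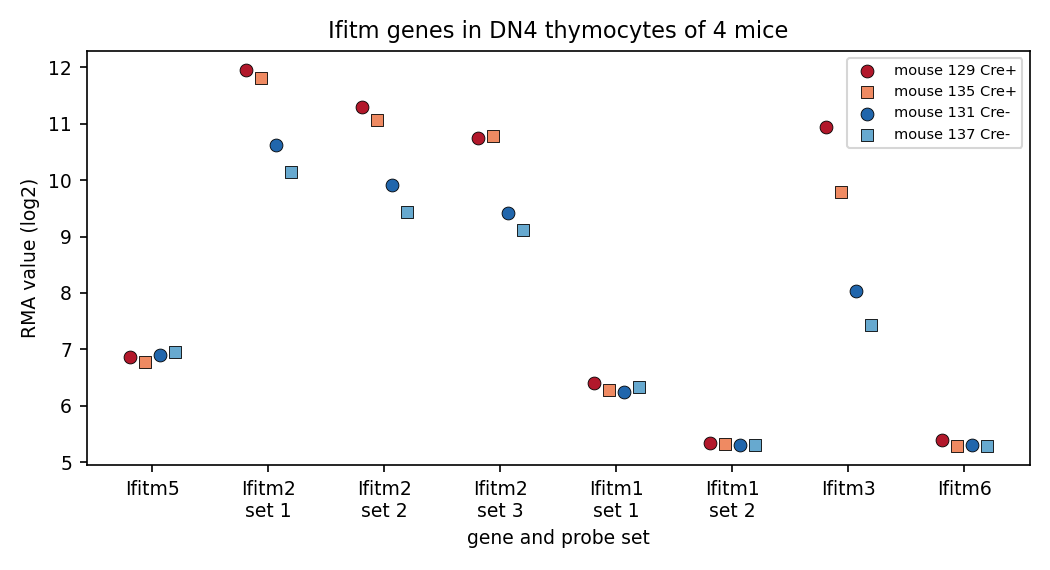
RMA values on the log2 scale (vertical axis) for the 8 Ifitm probe sets (horizontal axis, in the gene order of the cluster), with 1 point for each of the 4 mice, red for Cre+ and blue for Cre-, circles for mice 129 and 131 and squares for 135 and 137. All 3 Ifitm2 sets show the Cre+ points close together and above the Cre- points, Ifitm3 shows mouse 129 at 10.94 above mouse 135 at 9.79, and Ifitm1, Ifitm5 and Ifitm6 are nearly level.

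The values of neighbouring genes were not used to choose the members. The 10 measured genes on either side of the cluster in the RefSeq order were compared with limma, which pools the spread over all probe sets. None of the 20 neighbours passed, either in the fit over all 35556 probe sets, where 0 probe sets passed an adjusted p of 0.05 and 2356 (6.63%) had an unadjusted p under 0.05, or in the fit limited to probe sets with 1 gene symbol, where 1.22% passed. At an unadjusted p under 0.05 there were 0 of the 20 over all probe sets and 1, Pgghg, in the limited fit. The counts among all 19938 genes were 1367 and 1897. Their differences ran from -0.16 to 0.31 with a median of -0.03, against -0.01 over all genes. The median was 0.017 without mouse 135 and 0.0080 without mouse 131.

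The nearest neighbour beyond Ifitm5 was Pgghg, which encodes a glucosidase acting on hydroxylysine-linked sugars. It read 8.85 and 8.59 in Cre+ cells, with 8.30 and 8.52 in Cre- cells, the largest difference among the 20 (0.31, SE 0.14, adjusted p = 0.806 over all probe sets and 0.441 in the limited fit). Nlrp6, a sensor of the NOD-like receptor family, followed with -0.16 (SE 0.11), and on the other side B4galnt4 and the plakophilin gene Pkp3 were at -0.02 and -0.03. Sigirr, an inhibitor of interleukin-1 receptor signalling, differed by 0.05, Ptdss2 by 0.14 (SE 0.09) and the ribonuclease inhibitor gene Rnh1 by -0.16 (SE 0.08). The differences above 1 in this stretch of 25 measured genes were those of Ifitm2 and Ifitm3, with the level genes Ifitm1, Ifitm5 and Ifitm6 between or beside them. Irf7, the interferon regulatory factor that amplifies interferon responses, is the measured gene 12 places past Ifitm6. It read 9.41 and 8.30 in Cre+ cells, with 7.87 and 7.64 in Cre- cells (1.10, SE 0.37, limma adjusted p = 0.679 over all probe sets and 0.178 in the limited fit).

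**Figure D2:**
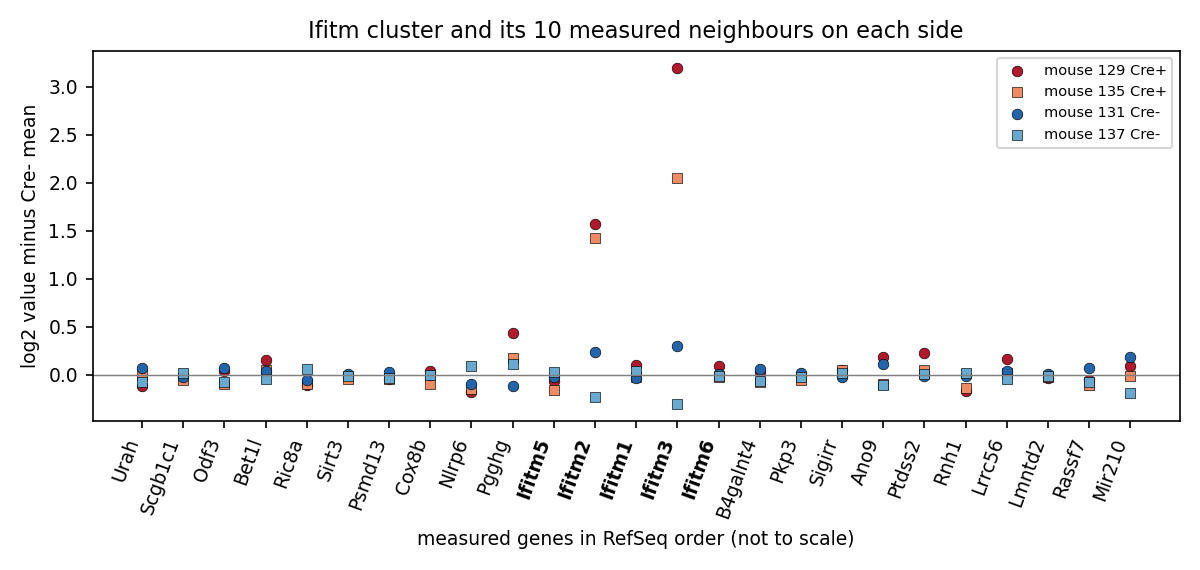
Log2 value minus the mean of the 2 Cre- mice (vertical axis) for each of the 4 mice in 25 measured genes of chromosome 7 in RefSeq order (horizontal axis, not to scale), with the 5 Ifitm genes in bold. The Cre+ points of Ifitm3 (3.20 and 2.05) and Ifitm2 (1.57 and 1.43) stand above the rest, and the neighbours stay near 0.

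Other genes of the interferon pathway were set beside the cluster. The lists were chosen with earlier results of these data known, so their counts describe and do not test a pathway. Of 38 listed interferon-stimulated genes 34 were measured. All 34 had higher means in the Cre+ mice, against 45.9% of all genes, and the median difference was 0.60. The groups did not overlap in 27, all on the higher side, against 16.1% of all genes. With limma an unadjusted p under 0.05 was reached by 18 over all probe sets and by 24 in the limited fit. Of all 19938 genes 1367 and 1897 reached it. After adjustment 0 passed over all probe sets and 4 rose in the limited fit, in which 0.936% of all probe sets rose and 0.285% fell.

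These 4 were Eif2ak2, the kinase PKR that halts translation on double-stranded RNA (0.59, SE 0.09, limma adjusted p = 0.0187 in the limited fit), the RNA sensor gene Ifih1 (1.14, SE 0.19, adjusted p = 0.0167), Oas1a (0.87, SE 0.15, adjusted p = 0.0237), which makes the activator of RNase L, and the DNA-binding Ifi203 (0.50, SE 0.10, adjusted p = 0.0392). Mouse 129 had the highest values. Relative to the Cre- mean its median was 0.79 in mouse 129 and 0.31 in mouse 135, and the latter is also the median difference without mouse 129. Mouse 129 was above mouse 135 in 34 of 34 genes, by a median of 0.53, whereas within the Cre- group mouse 131 was above mouse 137 in 22 genes and by a median of 0.05. The difference was larger in the female than in the male pair in 34 of 34 genes, with medians of 0.81 and 0.35. Sex and single mice cannot be told apart here.

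Ifitm2, Ifitm3 and the interferon-stimulated genes were next compared by how the 2 Cre+ mice stood to each other, as a description with no test. As a share of the difference of mouse 129 from the Cre- mean, the difference of mouse 135 was 85.8% to 103% in the 3 probe sets of Ifitm2 and 64.1% in Ifitm3. Among the 14 interferon-stimulated genes in which mouse 129 was at least 1 above the Cre- mean, a limit set with the values known, this share had a median of 41.0% and ran from 18.3% in Rsad2 to 69.7% in Oas1a. In 1 of the 14, Oas1a, it was above that of Ifitm3, and in 0 of the 14 it reached that of Ifitm2. Eif2ak2, with a smaller difference in mouse 129 (0.64), had 85.7%. Oasl2, an oligoadenylate synthetase-like gene, reached 47.6%, Ifit1, which binds foreign RNA ends, 39.7%, and Irf7 32.7%.

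**Figure D3:**
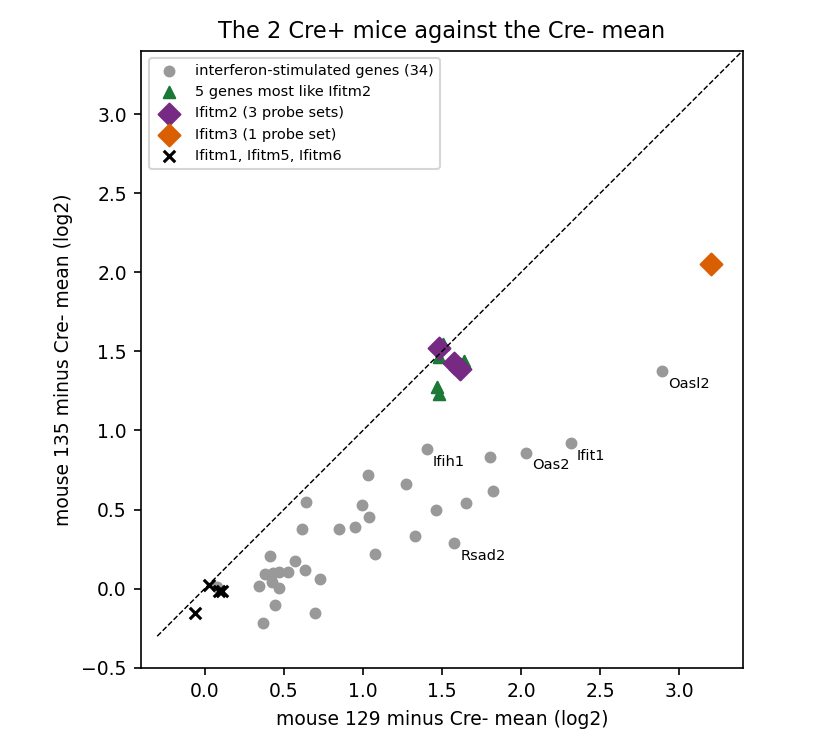
Difference from the Cre- mean in mouse 129 (horizontal axis, log2) against that in mouse 135 (vertical axis, log2) for 34 interferon-stimulated genes in grey, the 5 genes most like Ifitm2 as green triangles, and the Ifitm probe sets, with a dashed line where both mice are equal. Ifitm2 lies at the line, Ifitm3 (3.20 and 2.05) lies below it, and the labelled Oasl2, Ifit1, Oas2 and Rsad2 lie further below in proportion. The labelled Ifih1 has nearly the proportion of Ifitm3 (62.9% against 64.1%). Oas1a (69.7%) and Eif2ak2 (85.7%), not labelled, lie nearer the line in proportion than Ifitm3, and the other unlabelled grey genes do not.

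Over all 19938 genes mouse 129 was at least 1 above mouse 135 in 16 (0.0802%), with Ifitm3 at rank 14. They included 6 of the 34 interferon-stimulated genes, Oasl2, Ifit1, Rsad2, Usp18, Oas2 and Irf7, and Iigp1 of the interferon-gamma list. Slc15a2, Ifi213, Slfn5, Ifi206, Gm12250, Ube2l6 and Ifi208 were also among the 16 and are on neither list. The lists do not hold every gene that interferon induces, so they do not count such genes among the 16. Xist, the female transcript, led with 7.22. Ifitm3 was the 1 gene found both among these 16 and among the 33 genes with a gap of at least 1 between the groups. It was chosen with both differences known, so nothing is read from its rank or from this overlap. None of the 34 interferon-stimulated genes was among those 33 genes, which were 0.166% of all genes, so this absence says little. The largest gap among the 34 was 0.94, in Oasl2.

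Genes with the pattern most like each member were taken as the 5 smallest root mean square differences over the 4 mice, after each gene was centred on its own mean. For Ifitm2 these were the endocytic receptor gene Lrp1 (0.035), the cyclophilin gene Ppic (0.062), Alox5ap, which serves leukotriene synthesis (0.070), Fam163b (0.081) and the small GTPase gene Rab34 (0.099). Lrp1 read 9.10 and 8.91 in Cre+ cells, with 7.67 and 7.27 in Cre- cells, and Rab34 at 8.13 and 8.17 against 6.75 and 6.49. None of the 5 is on the lists of interferon genes, but those lists hold few of all genes, so this says little. For Ifitm3 the nearest was Oasl2 (0.29), with 10.76 and 9.24 in Cre+ cells and 8.30 and 7.43 in Cre- cells. It was followed by Socs2, a feedback inhibitor of cytokine receptors (0.40), the p120 catenin gene Ctnnd1 (0.41), the GTPase gene Iigp1 (0.48) and Ifit1 (0.51). A difference of at most 0.2 was shared by 17 probe sets for Ifitm2 and by 0 for Ifitm3. For the level gene Ifitm1 20798 probe sets lay within it, so the nearest, Trim38, Tigd2, Whamm, Platr8 and Cyp3a16, say little. With 4 mice such likeness is a description.

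**Figure D4:**
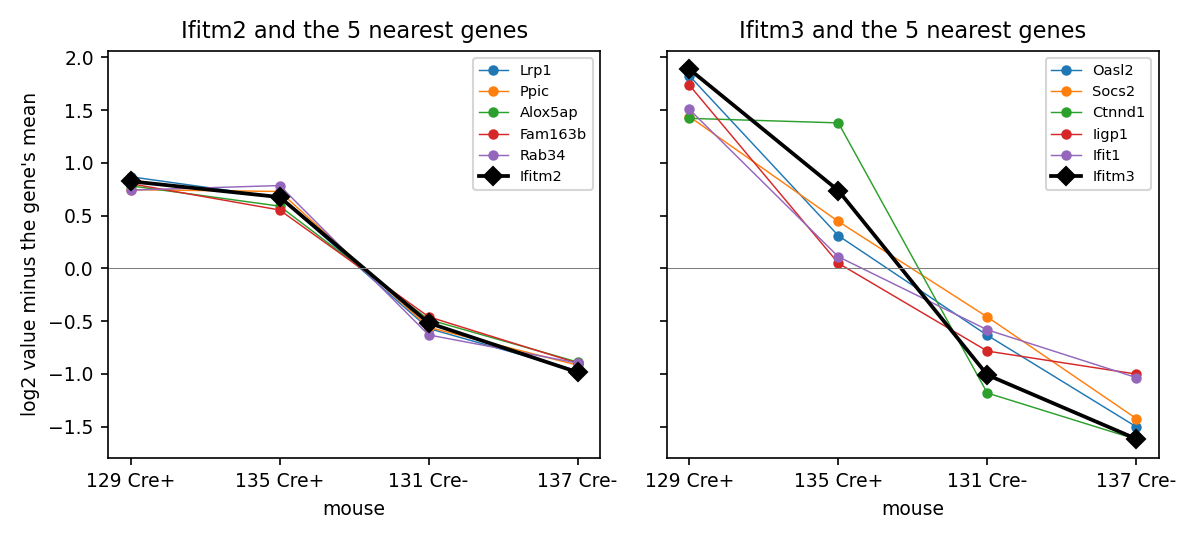
Log2 values centred on each gene's mean (vertical axis) in the 4 mice (horizontal axis) for Ifitm2 (left, probe set 10383756) and Ifitm3 (right) in black, each with its 5 nearest genes in colour. The lines join values of 1 gene and stand for no order of mice. The genes near Ifitm2 have both Cre+ mice at about the same height, while Oasl2, Socs2, Iigp1 and Ifit1 on the right are lower in mouse 135 than in mouse 129, as Ifitm3 is, and Ctnnd1 is at nearly the same height in both.

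Upstream, the interferon ligands were followed in 14 measured genes, whose differences ran from -0.24 to 0.16 with a median of -0.01 and an equal 7 higher and 7 lower. None passed limma in either fit, and 0 had an unadjusted p under 0.05 in either. Ifng, the T and natural killer cell interferon, read 6.63 and 6.56 in Cre+ cells, with 6.39 and 6.47 in Cre- cells (0.16, SE 0.10), and Ifna13, Ifna12 and Ifna2, of the interferon alpha genes, differed by -0.09, -0.24 and -0.21. Ifnb1, interferon beta, differed by -0.10. Of the 14 ligand genes, 6 lay at or below the 25th percentile of mean level on the array (5.41), Ifna13, Ifna12 and Ifnb1 among them. Differences of such dim probe sets say little about the ligands. Of the 11 measured receptor and signalling genes 0 passed limma in either fit and 4 had an unadjusted p under 0.05 in each, with a median of -0.04. Among all 19938 genes 1367 had such a p over all probe sets and 1897 in the limited fit. The interferon-gamma receptor gene Ifngr1 differed by -0.19 (SE 0.04), the type I receptor gene Ifnar2 by -0.19 (SE 0.05), and Il10rb by -0.37 (SE 0.14). Irf9, the DNA-binding part of the complex on the ISRE and itself inducible, differed by 0.64 (SE 0.22) and reached 9.48 in mouse 129, the other 3 animals lying between 8.49 and 8.82.

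Interferon-gamma-induced GTPases and antigen processing genes were taken as a second list of interferon targets. Of 20 measured, 12 had higher means, against 45.9% of all genes, and the median was 0.04 and the mean 0.18. The groups did not overlap in 5 on the higher and in 3 on the lower side (16.1% and 20.3% of all genes). Irgm1, a GTPase acting on vacuoles of pathogens, rose in the limited fit (0.61, SE 0.12, limma adjusted p = 0.0453). Iigp1 differed by 1.78 (SE 0.55), at 8.22 in mouse 129 and 6.53 in mouse 135 against 5.70 and 5.48, Gbp5 by 0.64 (SE 0.20) and Gbp8 by -0.36 (SE 0.09), none of which passed.

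Among 13 measured restriction factors of other kinds, 11 had higher means (median 0.16), against 45.9% of all genes. The groups did not overlap in 7, all on the higher side, against 16.1% of all genes. Slfn2, a schlafen gene of T cell quiescence, rose in the limited fit (1.03, SE 0.19, limma adjusted p = 0.0243), at 9.61 and 9.12 against 8.22 and 8.46. In that fit 0.936% of all probe sets rose. Trim25 (0.36, SE 0.07), the deaminase gene Apobec3 (0.16, SE 0.04) and Serinc5 (0.37, SE 0.13) did not pass. Bst2, which encodes tetherin and was named after its values were seen, was at 10.46 in mouse 129 but at 9.46 in mouse 135, below the 9.85 and 9.79 of the Cre- mice.

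The dispanin family beyond the cluster was nearly level. Of its 7 measured genes 0 passed limma or had an unadjusted p under 0.05 in either fit, and the differences ran from -0.14 to 0.18 with a median of 0.01. Ifitm10 differed by 0.08 (SE 0.12), Syndig1l by 0.18 (SE 0.12), Syndig1 by -0.14 (SE 0.11) and Prrt1 by -0.04 (SE 0.10). Ifitm7, the family member on another chromosome, was at 6.23 and 6.24 against 6.32 and 6.14.

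Genes for enzymes that modify IFITM proteins and for their partners were taken as 15 measured genes, with a median of 0.01. Cd81, a tetraspanin that associates with IFITM1 at the cell surface, rose in the limited fit (0.76, SE 0.08, limma adjusted p = 0.00297) with values of 11.39 and 11.38 in Cre+ cells against 10.51 and 10.74 in Cre- cells. Like Ifitm2 it was at nearly the same value in both Cre+ mice. Fyn, a kinase that phosphorylates IFITM3 and acts in T cell receptor signalling, also rose (0.42, SE 0.06, adjusted p = 0.0320). The tetraspanin gene Cd9 (0.35, SE 0.13) and the ubiquitin ligase gene Nedd4 (-0.08, SE 0.04), which targets IFITM3, did not pass. Zdhhc20, the palmitoyltransferase of IFITM proteins, and the 4 subunit genes of the AP-2 adaptor, Ap2m1, Ap2a1, Ap2b1 and Ap2s1, differed by at most 0.08.

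In cells sorted in bulk, fewer cells of a type and less RNA per cell cannot be told apart, so markers of other cells that express Ifitm genes are given with the members. Of 11 measured macrophage and monocyte markers, Lyz2, the lysozyme gene, rose in the limited fit (1.04, SE 0.18, limma adjusted p = 0.0206). It read 7.56 and 7.59 in Cre+ cells, with 6.79 and 6.29 in Cre- cells, high in both Cre+ mice as Ifitm2 was. The other 10 did not pass, among them C1qb (0.26, SE 0.19), Fcgr3 (-0.11, SE 0.10) and Ccr2 (-0.10, SE 0.07). Of the defining genes, Csf1r, Itgam, Adgre1 and Cd14 lay between 4.76 and 5.67 and differed by at most 0.08. Cd68 lay above the array medians, at 7.03 and 7.45 in Cre+ cells against 7.03 and 7.41 in Cre- cells (0.02, SE 0.20). C1qb and C1qa were highest in Cre+ mouse 135, at 6.60 and 6.24. In the other mice C1qb lay between 6.02 and 6.16 and C1qa between 6.04 and 6.08. The summed level of the 11 was 64.6 and 65.7 in Cre+ cells, with 64.2 and 63.6 in Cre- cells (sums of log2 values).

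Neutrophil markers, 9 measured, lay between 4.58 and 6.55 with 0 passing limma or at an unadjusted p under 0.05 in either fit, and Elane, Csf3r, Retnlg and Ltf differed by -0.11, -0.09, -0.05 and -0.05. Osteoblast markers, 5 measured, lay between 4.86 and 7.49, also with 0 at any of these limits, and Phex, Alpl, Ibsp and Dmp1 differed by -0.12 to 0.06. Erythroid (4 measured), thymic stroma (10), B cell (7) and mature T cell markers (7) had 0 passing limma in either fit, with medians of 0.02, -0.02, -0.19 and -0.26. At an unadjusted p under 0.05 they had 0, 2, 2 and 2 over all probe sets and 0, 2, 2 and 5 in the limited fit. Among all 19938 genes 1367 and 1897 had such a p in these fits. The summed level was 42.7 and 43.1 against 43.1 and 45.1 for the B cell list, and 57.8 and 56.7 against 58.6 and 59.6 for the mature T cell list. Of the mature T cell list Itgae, an integrin gene, differed by -0.87 (SE 0.22), Il7r by -0.44 (SE 0.18), Cd69 by -0.41 (SE 0.16) and S1pr1, the receptor used in leaving the thymus, by -0.26 (SE 0.09). Cd5, the 1 gene of this list with a higher mean, differed by 0.40 (SE 0.16), at 10.16 and 9.74 against 9.44 and 9.65. The B cell receptor genes Cd79a and Cd79b differed by -0.35 (SE 0.12) and 0.25 (SE 0.09), and Cd22 and Pax5 by -0.26 and -0.19. Of the stroma list Epcam differed by -0.48 (SE 0.15), Pdgfrb by 0.43 (SE 0.14), Pecam1 by -0.09 and Krt8 by 0.13. The erythroid genes Epb42, Klf1, Slc4a1 and Alas2 differed by -0.10 to 0.03.

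Of 9 dendritic cell markers Ccr9, also a thymocyte chemokine receptor, fell in the limited fit (-0.64, SE 0.08, limma adjusted p = 0.00743), and of 11 natural killer and innate lymphoid markers Nkg7 did (-1.04, SE 0.09, adjusted p = 0.00114). Blk, which marks gamma-delta T cells among others, fell as 1 of 5 (-0.51, SE 0.09, adjusted p = 0.0463). Not passing were Bcl11a (-0.58, SE 0.14), Itgax (-0.09) and Clec9a (0.05) of the dendritic list, Gzma (-0.19, SE 0.03), Tbx21 (0.36, SE 0.13) and Klrb1c (0.10) of the natural killer list, and Il17rb (-0.16), Zbtb16 (-0.16) and Maf (-0.03) of the gamma-delta list. The summed levels were 57.8 and 57.5 against 59.3 and 58.7 for the dendritic list, 71.0 and 71.3 against 72.3 and 71.8 for the natural killer list, and 39.4 and 38.8 against 40.1 and 39.8 for the gamma-delta list, with the Cre+ mice first. In the DN4 list, with 14 measured, 8 means were higher and 6 lower, against 45.9% higher among all genes. On the lower side Cd44 differed by -0.42 (SE 0.10), Il2ra by -0.38 (SE 0.23) and Cd8b1 by -0.27 (SE 0.08), none passing. Cd3d, Cd3g, Cd3e and Rag1 rose in the limited fit by 0.66, 0.37, 0.25 and 0.38 (adjusted p from limma of 0.00432, 0.00979, 0.0180 and 0.0383). Their part in the values of Ifitm2 and Ifitm3, and that of Lyz2, was not tested.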

How the data were processed

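Total RNA of DN4 cells sorted from 4 mice was labelled in a 2-cycle assay and hybridised to Affymetrix mouse gene arrays, 1 per mouse, per the labels' protocols. RMA is the tool that the submitters' processing notes name for the log2 values the authors deposited. That they are on a log2 scale was taken from their range (3.14 to 14.4). The sources used here give no RMA version, filter or genome build, so only printed promoter sequences carry coordinates, those of RefSeq's GRCm38.p6. Groups come from the Cre status in the titles, and 0 sample columns were left unused.

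All 35556 probe sets were compared as Cre+ minus Cre- with limma 3.58.1 in R 4.3.3 (lmFit, eBayes with trend; 2 residual and 2.99 prior degrees of freedom) and Benjamini-Hochberg adjustment at 0.05. The limited fit used the 21789 probe sets with 1 gene symbol; 1621 had several and 12146 were not listed. The limma comparison was tested on simulated data. Alternatives were other scalings, filters on dim probe sets, eBayes settings, array weights, sex as a block and each mouse left out.

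Members and lists (19 lists, 243 genes) were chosen with earlier results of these data known. Named were all members, the 4 genes with the smallest p per list and any past the threshold, the 10 neighbours on each side where described, and the 5 genes nearest in pattern to Ifitm1, Ifitm2 and Ifitm3; other genes were named after their values were seen. Each gene is represented by its probe set with the highest mean, members by all.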

Additional observations from a re-analysis of the deposited data

How the results depend on the processing

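With limma, 0 probe sets passed over all 35556; the count was 10 after median centring of the arrays, 25 among probe sets above the 25th percentile of level, 80 above the median and 266 among those with 1 gene symbol, where 4 interferon-stimulated genes passed against 0 otherwise. Leaving out 1 mouse at a time gave 0 probe sets each time, differences of 1.27 to 1.73 for Ifitm2, 2.05 to 3.20 for Ifitm3, -0.02 to 0.11 for Ifitm1, -0.15 to -0.06 for Ifitm5 and -0.02 to 0.09 for Ifitm6, and medians of 0.31 to 0.79 for interferon-stimulated genes, -0.02 to 0.09 for the interferon-gamma list and -0.046 to 0.017 for the neighbouring genes. The interferon-gamma list had a mean of 0.18 against its median of 0.04. In all, 109 of the alternative values moved by less than the spread between mice, or by less than 1.5 times for counts, and 9 by more. The cause was not tested. For the members, values with a mouse left out or with sex as a block could only fall within that spread, which comes from the same mice. The tally therefore does not measure stability. No paired analysis by mouse number was possible because the groups share no mouse numbers. With sex as a block 0 probe sets passed. The differences of Ifitm2 and Ifitm3 stayed at 1.50 and 2.62, which is no check, because with 1 animal of each sex per group the block cannot change them. The number of arrays, 2 per group, limits every value, and signal over background was not analysed here.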
